A study of Homo sapiens with 2 samples.

Results

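S100 proteins and the annexins they pair with were examined in the human pancreatic adenocarcinoma line AsPC-1, a standard laboratory line, through 10 genes chosen by name: S100A4, S100A6, S100A10, S100A11, S100A14, S100P, ANXA1, ANXA2, ANXA3 and ANXA10. Each of the 10 had 1 probe set carrying its symbol, out of 14884 genes named on the array. The cells were grown as a 3-dimensional culture overlaid with collagen gel. The compressed culture was kept under a compressive stress of 2.9 mmHg for 24 h, and the uncompressed culture was kept for 24 h without it. RNA of each was read on 1 GeneChip Human Gene 2.0 ST array, as log2 RMA signals that the authors deposited. With 1 array per condition there is no replicate, no test and no p-value, so "higher" and "lower" describe these 2 arrays only.

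S100 proteins are small EF-hand proteins that mostly work as dimers, and calcium binding exposes a surface by which they grip partner proteins. Annexins bind negatively charged membrane phospholipids in the presence of calcium through a folded core, and several carry an S100 binding site in their variable amino-terminal tail. The best known complexes join S100A10 with annexin A2, S100A11 with annexin A1 and S100A6 with annexin A11, and such complexes link membranes, the cortical actin cytoskeleton and the repair of torn plasma membrane. S100P, S100A4, S100A6 and annexin A2 have long been studied in pancreatic cancer.

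In the compressed culture 3 of the 10 genes were at least 1.5-fold higher: S100A14 (1.80-fold), ANXA3 (1.78-fold) and ANXA2 (1.56-fold). None was at least 1.5-fold lower, and S100A4, S100A6, S100A10, S100A11 and ANXA1 stayed within 1.5-fold. S100P and ANXA10 lay below the level floor of 4.79, the median gene level over both arrays, and 8 of the 10 genes passed it. Of the 7442 genes that passed, 3.95% were at least 1.5-fold higher and 1.12% at least 1.5-fold lower. With each array centred on its median over the kept genes, which was 6.30 for the compressed and 6.23 for the uncompressed array, 214 genes were higher and 142 lower, against 294 and 83 as deposited. The median difference, compressed minus uncompressed on the log2 scale, was 0.21 over the 8 genes and 0.01 over all 7442. The 10 genes were chosen with earlier results of these data known, so neither comparison with all kept genes can show that the group stands out. ANXA2 is the least settled of the 3, since its difference was 0.57 with that centring and just under 1.5-fold with repeated quantile normalization, and since it has near-identical pseudogenes, described with its values.

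The 250 bases before the annotated start are shown for the 3 genes that were higher and for S100A10, whose protein binds annexin A2 and whose level did not differ by 1.5-fold. They are RefSeq sequences of build GRCh38.p14, read 5′ to 3′ along the gene, and all 10 genes matched an entry. The stretches are chr1:153616326-153616575, minus strand, for S100A14, chr4:78551520-78551769, plus strand, for ANXA3, chr15:60397987-60398236, minus strand, for ANXA2, and chr1:151993860-151994109, minus strand, for S100A10. Capitals mark matches, on either strand, to an AP-1 element (TGANTCA), a metal response element core (TGCACNC or TGCGCNC) or a TATA box (TATAAA).
S100A14: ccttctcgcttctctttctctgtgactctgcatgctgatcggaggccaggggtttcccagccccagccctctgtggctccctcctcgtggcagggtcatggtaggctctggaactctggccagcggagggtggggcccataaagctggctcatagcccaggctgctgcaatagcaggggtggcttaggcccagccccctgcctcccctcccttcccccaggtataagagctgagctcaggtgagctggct
ANXA3: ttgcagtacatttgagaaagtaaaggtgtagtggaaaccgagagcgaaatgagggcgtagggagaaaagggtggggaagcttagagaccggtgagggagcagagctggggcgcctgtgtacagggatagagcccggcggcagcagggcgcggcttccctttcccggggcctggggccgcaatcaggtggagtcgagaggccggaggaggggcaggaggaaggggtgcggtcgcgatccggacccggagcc
ANXA2: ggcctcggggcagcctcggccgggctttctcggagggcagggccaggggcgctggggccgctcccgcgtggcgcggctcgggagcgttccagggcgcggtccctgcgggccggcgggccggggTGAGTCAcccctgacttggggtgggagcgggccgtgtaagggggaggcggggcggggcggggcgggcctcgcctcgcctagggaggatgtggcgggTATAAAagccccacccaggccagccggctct
S100A10: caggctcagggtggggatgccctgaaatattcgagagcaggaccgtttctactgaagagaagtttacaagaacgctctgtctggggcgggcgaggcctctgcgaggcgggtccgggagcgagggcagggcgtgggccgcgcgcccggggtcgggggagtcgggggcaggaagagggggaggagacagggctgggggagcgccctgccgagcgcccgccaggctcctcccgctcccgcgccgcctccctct

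The 3 upstream stretches of the higher genes share none of these motifs. In ANXA2 an AP-1 element began 127 bases before the start and a TATA box 31 bases before it, and no motif overlapped another there. S100A14, ANXA3 and S100A10 held none of the searched letters in this window. An AP-1 element was found in 1 of the 10 genes, against 6.57% of 35116 promoters of the same length, and a TATA box in 5 of the 10 (ANXA1, ANXA2, ANXA10, S100A4 and S100P), against 10.7%. A metal response element core was found in 1 of the 10, S100A6, against 24.8%. The G and C share of the stretch was 63.2% for S100A14, 64.0% for ANXA3, 78.0% for ANXA2 and 71.2% for S100A10. These matches describe letters and show neither binding nor a cause.

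Over all 53617 probe sets the median log2 signal was 3.72 on the compressed and 3.75 on the uncompressed array, and the arrays correlated at 0.978 across probe sets, which are not independent replicates. For kept genes the quartiles of the difference were -0.15 and 0.18, a robust SD across genes of 0.248, which is not an error between cultures. Of 10 duct-like epithelial markers 6 had a named probe set, and KRT19 (10.8 on both arrays), KRT18 (11.7 compressed, 11.5 uncompressed) and EPCAM (10.4 compressed, 10.8 uncompressed) lay above the floor, while KRT7 lay below the floor (3.78 compressed, 3.36 uncompressed). The summed linear signal of 3 named fibroblast markers of 9 was 707 in the compressed and 890 in the uncompressed culture, nearly all from LUM. For 4 named leukocyte markers of 8 it was 667 in the compressed and 403 in the uncompressed culture. CD68, a lysosomal glycoprotein gene, made up most of this difference (log2 level 9.26 compressed, 8.45 uncompressed), while CD14, CSF1R and NKG7 lay below the floor on both arrays. The 3 named endothelial markers of 5 and the 5 named acinar and islet markers of 8 all lay below the floor. No detection calls were used here, no marker reads 0 on an RMA scale, and the part of these markers in the results below was not tested. In a bulk culture, fewer cells of a type and less RNA per cell cannot be told apart.

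**Figure D1:**
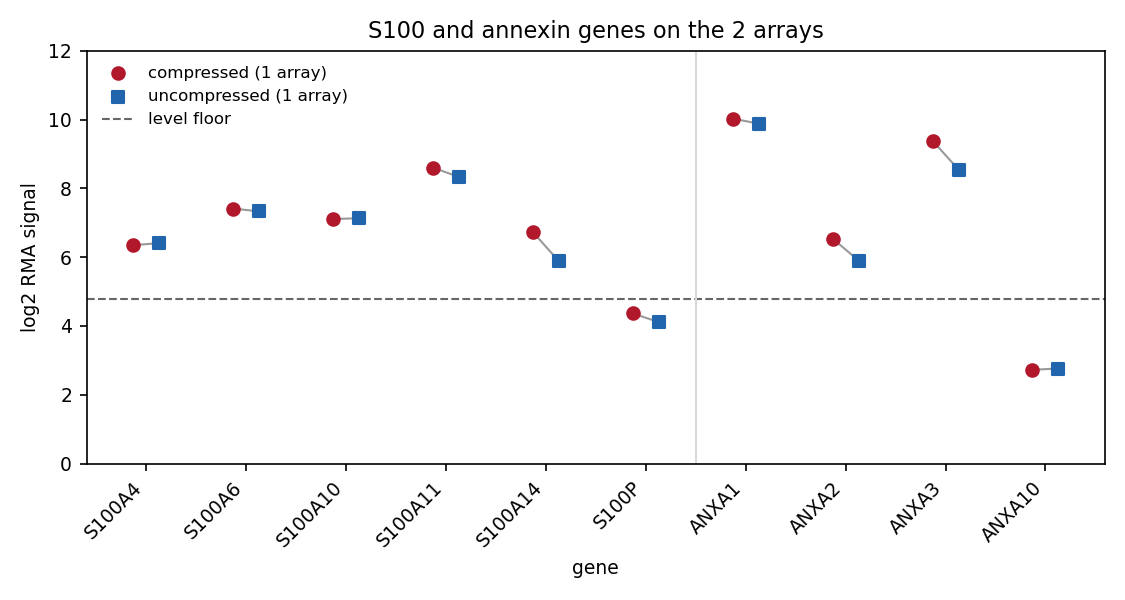
Log2 RMA signal (vertical axis) of the 10 genes, with 1 point per array: red circles for the compressed and blue squares for the uncompressed culture, joined by a grey line, and a dashed line at the level floor of 4.79. S100A14, ANXA2 and ANXA3 have the steepest lines, and S100P and ANXA10 lie below the floor on both arrays; without replicates there is no error bar, and levels of different genes come from different probes and are not comparable.

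Among the 6 chosen S100 genes, S100A14 alone was at least 1.5-fold higher. S100A14 encodes an epithelial S100 protein whose EF-hands are altered, so that it binds calcium poorly. Its log2 level was 6.73 in the compressed and 5.89 in the uncompressed culture, a difference of 0.85. The compressed value was the higher of the pair, and 98.5% of kept genes had a lower difference. Under the 3 alternative scalings (loess correction against level, median centring and repeated quantile normalization), the difference of S100A14 lay between 0.78 and 0.80, past 1.5-fold in all 3.

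S100A11, a partner of annexin A1 that also takes part in plasma membrane repair, had a log2 level of 8.60 in the compressed and 8.34 in the uncompressed culture. Its difference of 0.27 is 1.20-fold and lies close to the robust SD across genes. S100A6 (calcyclin), which binds annexin A11 and the ubiquitin ligase adaptor encoded by CACYBP, read 7.41 in the compressed and 7.33 in the uncompressed culture, a difference of 0.08. Both genes were on the higher side in the compressed culture, and neither reached 1.5-fold.

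S100A10, known as p11, has lost calcium binding and is held in an active shape, in which its dimer joins annexin A2 molecules. Its log2 level was 7.11 in the compressed and 7.13 in the uncompressed culture, a difference of -0.03. S100A4, known for binding non-muscle myosin IIA and for its association with metastasis, read 6.35 in the compressed and 6.41 in the uncompressed culture, a difference of -0.06. Each of these pairs of values is nearly level, and 43.6% and 38.6% of kept genes had a lower difference than S100A10 and S100A4. Over the 5 of the 6 chosen S100 genes above the floor, the median difference was 0.08. Of these 5, 1 was at least 1.5-fold higher and 0 lower, beside 3.95% and 1.12% of all kept genes.

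S100P, a secreted S100 protein that can act through the receptor RAGE and binds ezrin, read 4.36 in the compressed and 4.12 in the uncompressed culture. Both values are below the floor, so whether its probe set was above background is unknown and no fold is given.

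Among the annexins, ANXA3 had the largest difference of the 4. ANXA3 encodes annexin A3, a calcium-dependent membrane-binding protein. Its log2 level was 9.38 in the compressed and 8.55 in the uncompressed culture, a difference of 0.84. The compressed value was the higher one, with 98.4% of kept genes below that difference, and under the 3 alternative scalings it lay between 0.77 and 0.85, past 1.5-fold in all 3.

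ANXA2 encodes annexin A2, which with S100A10 forms a membrane-bound heterotetramer that also binds plasminogen and its activator tPA. Its log2 level was 6.54 in the compressed and 5.90 in the uncompressed culture, a difference of 0.64. It was the higher in the compressed culture, with 96.9% of kept genes below that difference. S100A10 differed by -0.03 on the same arrays, so the difference of ANXA2 exceeded that of its partner by 0.66, for which no test could be made. That gap rests on the ANXA2 probe set alone. The probe set of the near-identical pseudogene ANXA2P2, described next, differed by 0.03.

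ANXA2 has 3 transcribed pseudogenes on the array, near-identical copies of its transcript, and none of them reached 1.5-fold. ANXA2P2 read 11.86 in the compressed and 11.83 in the uncompressed culture, a difference of 0.03 that was just below 0 after loess correction (local regression on level) and was -0.04 after median centring. ANXA2P1 read 5.51 in the compressed and 5.37 in the uncompressed culture. ANXA2P3 lay below the floor, at 4.57 in the compressed and 4.34 in the uncompressed culture. Probes for these copies may take up ANXA2 transcripts and the reverse, so the division of signal among them is uncertain and the value of ANXA2 is given with that limit. ANXA2R, which encodes a reported annexin A2 receptor, read 4.96 in the compressed and 4.08 in the uncompressed culture, with its mean level below the floor, so it enters no count and has no fold.

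ANXA1 encodes annexin A1, a glucocorticoid-regulated protein that is a ligand of formyl peptide receptors and binds S100A11. Its log2 level was 10.03 in the compressed and 9.88 in the uncompressed culture, a difference of 0.15, or 1.11-fold. ANXA1 and its partner S100A11 thus both read slightly higher in the compressed culture, by less than 1.5-fold each. ANXA10, an annexin of gastric epithelium, was below the floor at 2.73 in the compressed and 2.76 in the uncompressed culture. Over the 3 of the 4 chosen annexin genes above the floor (ANXA1, ANXA2 and ANXA3) the median difference was 0.64, which is that of ANXA2. When the kept genes were divided by mean level into 4 equal bins, 4.46% of genes in the bin of ANXA2, 4.19% in that of S100A14 and 3.17% in that of ANXA3 were at least 1.5-fold higher.

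**Figure D2:**
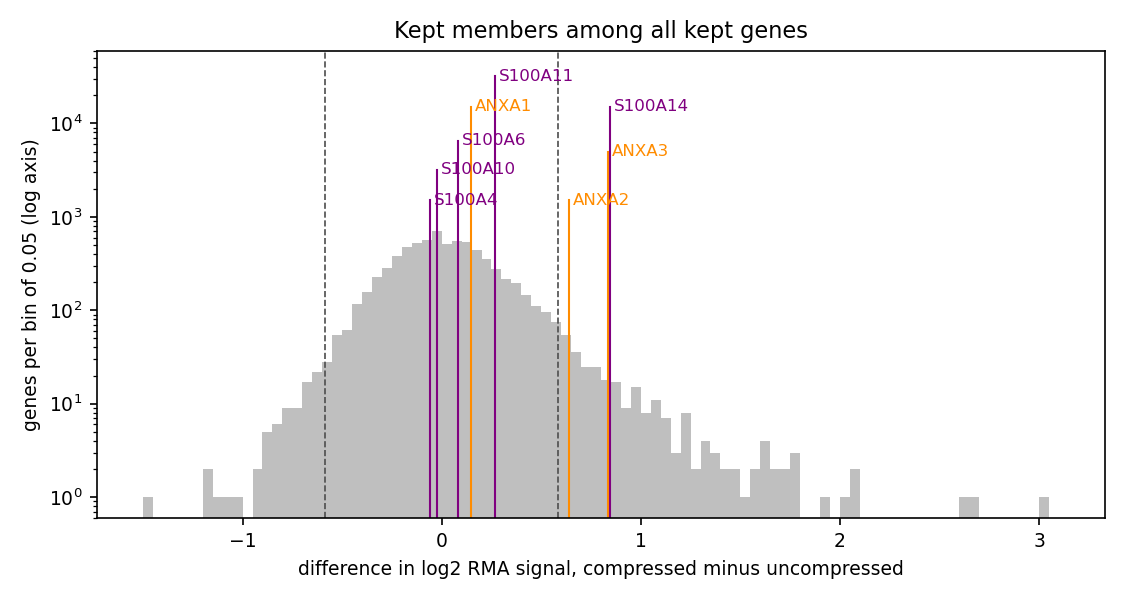
Number of kept genes (vertical axis, logarithmic) by difference in log2 RMA signal, compressed minus uncompressed (horizontal axis, bins of 0.05), with vertical lines for the 8 kept S100 (purple) and annexin (orange) genes and dashed lines at 1.5-fold. S100A14, ANXA3 and ANXA2 lie right of the 1.5-fold line among the 3.95% of kept genes found there, and the other 5 lie in the bulk of the distribution.

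The other genes of both families were set beside these 10. Of 14 further S100 genes with a named probe set, 4 passed the floor by mean level. Of these 4, S100A3 alone was past the 1.5-fold line on the higher side, beside 3.95% of all kept genes. S100A3 read 5.54 in the compressed and 4.71 in the uncompressed culture, the second of these below the floor. It passed only through the array where it is high, so no fold is given and nothing is concluded from this count. S100A13, which takes part in the release of proteins that lack a signal peptide, read 5.60 in the compressed and 5.17 in the uncompressed culture. S100A16, which is widely expressed, read 8.05 in the compressed and 7.64 in the uncompressed culture. Both were higher in the compressed culture, by 0.43 and 0.41, without reaching 1.5-fold. S100A9, a subunit of calprotectin, read 5.43 in the compressed and 5.54 in the uncompressed culture.

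The 10 remaining S100 genes were below the floor by mean level, with differences between -0.46 (S100A7A) and 0.36 (S100A2). They include S100A8, the other calprotectin subunit, at 3.63 in the compressed and 3.74 in the uncompressed culture, and S100A12, whose probe set gave the same value, 2.74, on both arrays. S100A1, S100A5, S100A7, S100B, S100G and S100Z were the others. Over all 20 named S100 genes 9 differences were positive, 10 were negative and that of S100A12 was 0.

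Of 9 further annexin genes 7 passed the floor. ANXA13, an intestinal annexin, was 2.28-fold lower in the compressed culture, at 5.94 against 7.13 in the uncompressed culture. Its difference was -1.19, and 0.0134% of kept genes had a lower one. ANXA4, an annexin of secretory and duct epithelia, read 10.38 in the compressed and 10.86 in the uncompressed culture. Its difference of -0.47 is short of 1.5-fold but was -0.67, past it, after repeated quantile normalization. ANXA5, the phosphatidylserine-binding annexin used to stain dying cells, read 10.02 in the compressed and 9.67 in the uncompressed culture, a difference of 0.35.

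ANXA11, the partner of S100A6, read 8.05 in the compressed and 8.26 in the uncompressed culture. Its difference of -0.21 was negative where that of S100A6 was 0.08, and both are under 1.5-fold. ANXA7, ANXA8 and the near-identical ANXA8L1 differed by 0.02, -0.06 and 0.11, and ANXA7 turned negative after median centring (-0.05) and repeated quantile normalization (-0.07). ANXA6 and ANXA9 lay below the floor, with differences of 0.12 and -0.10. Of 10 kept annexin genes 2 were at least 1.5-fold higher and 1 at least 1.5-fold lower, beside 3.95% and 1.12% of all kept genes. After median centring these counts were 1 and 1, beside 214 higher and 142 lower of all 7442 kept genes. After repeated quantile normalization they were 1 and 2, beside 239 and 106 of the 7442. The median difference of the 10 kept annexin genes was 0.07. It was just below 0 after median centring and -0.01 after repeated quantile normalization.

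**Figure D3:**
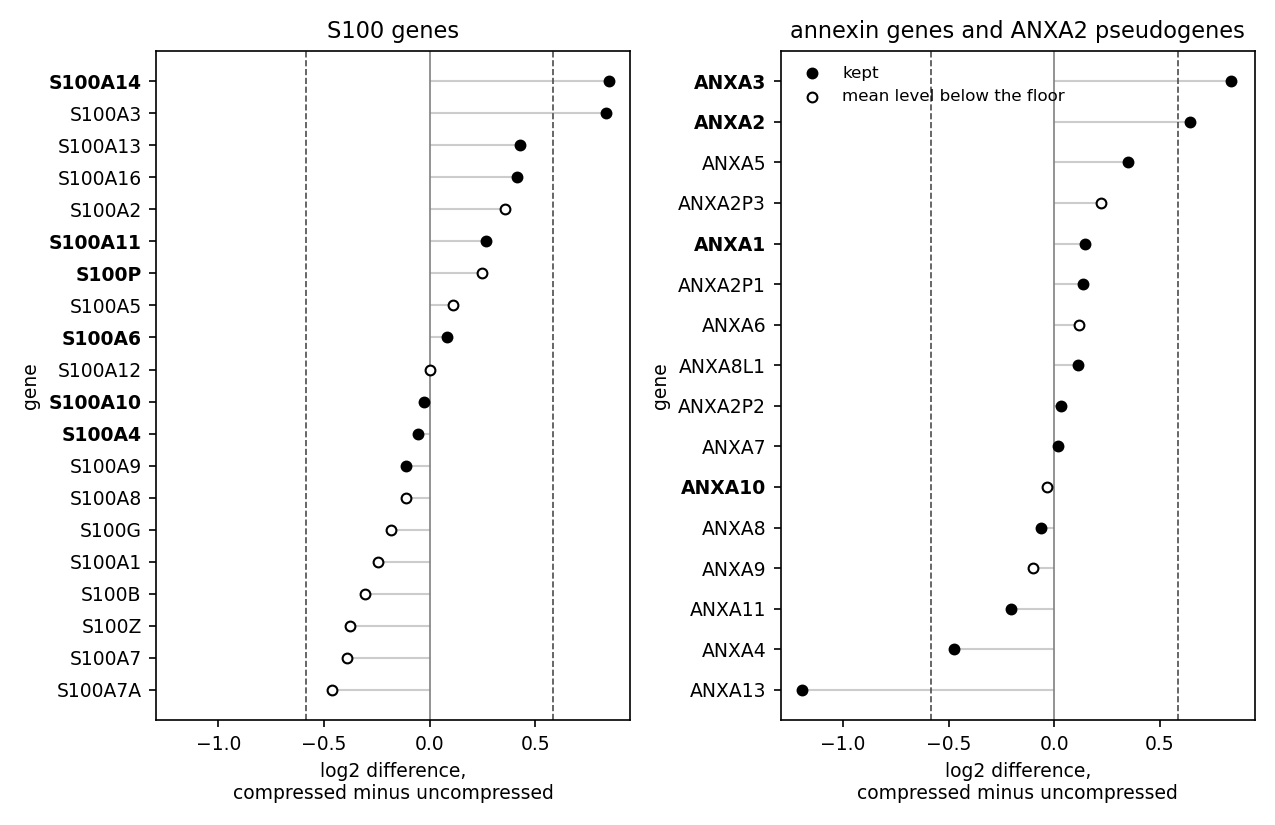
Difference in log2 RMA signal, compressed minus uncompressed (horizontal axis), of 20 S100 genes (left) and of 13 annexin genes with 3 ANXA2 pseudogenes (right), with filled circles for genes that passed the level floor, open circles for those below it, bold names for the 10 genes described first and dashed lines at 1.5-fold. S100A14, S100A3, ANXA3 and ANXA2 lie right of the 1.5-fold line and ANXA13 lies left of it. S100A3 passed the floor by mean level, but its uncompressed value is below it.

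Position was looked at because most S100 genes lie side by side on chromosome 1, in a stretch that also holds the genes of epidermal differentiation. In the RefSeq gene order S100A10 and S100A11 come first, followed by 47 other protein-coding genes and then S100A9 to S100A1. Of these 47 genes 44 had a named probe set and 3 passed the floor. These 3 were LCE3B (6.20 compressed, 6.38 uncompressed), LCE3A (5.98 compressed, 5.61 uncompressed) and SPRR2F (4.85 compressed, 5.00 uncompressed). All 3 belong to the LCE and SPRR gene families of epidermal differentiation. They were not on the list of 22 epidermal differentiation genes, of which 21 had a probe set and 0 passed the floor. S100A14 lies in a run of 5 consecutive genes, S100A3, S100A2, S100A16, S100A14 and S100A13, all with positive differences (0.83, 0.36, 0.41, 0.85 and 0.43). The genes on either side of the run, S100A4 and S100A1, differed by -0.06 and -0.25. Among the 11 S100 genes of the stretch outside the run, 3 differences were positive, 7 negative and 1 was 0. Of all 14884 named genes 6590 were positive and 7557 negative. The run was picked out after its values were seen, so it has no test. S100A2 in it is below the floor, and S100A3 is below it on the uncompressed array. The annotated spans of S100A13 and S100A1 overlap.

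**Figure D4:**
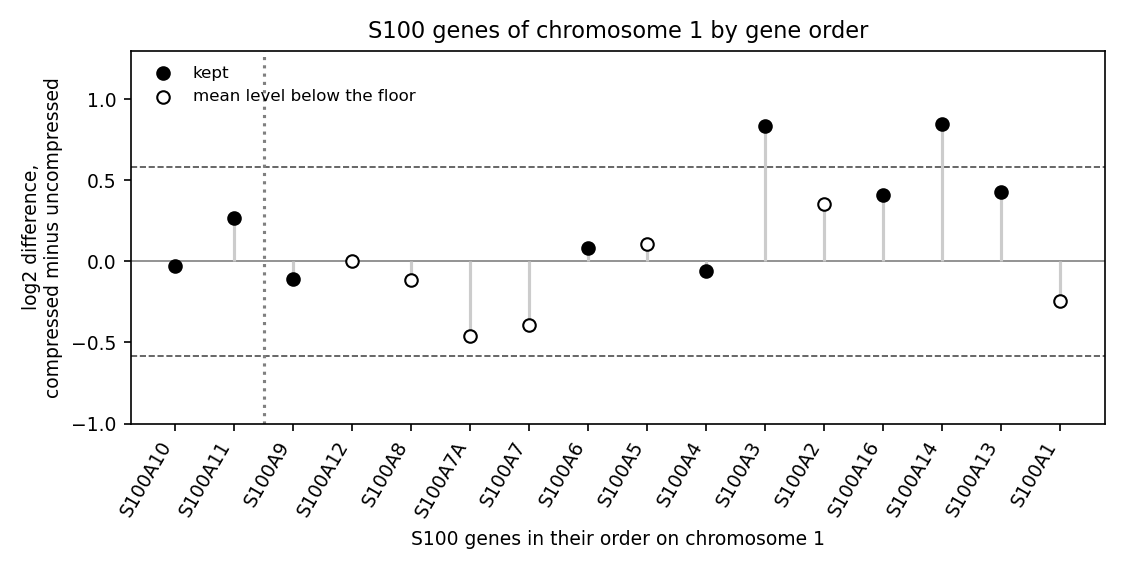
Difference in log2 RMA signal, compressed minus uncompressed (vertical axis), of 16 S100 genes in their order on chromosome 1 (horizontal axis, not to scale), with a dotted line where 47 other protein-coding genes intervene, filled circles for genes that passed the floor, open circles for those below it and dashed lines at 1.5-fold. The 5 neighbours from S100A3 to S100A13 lie above 0, between 0.36 and 0.85, and the genes beside them lie between -0.25 and -0.06.

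Partners and receptors of S100 proteins and annexins were counted as a list of 18 names, of which 13 had a named probe set and 9 passed the floor. Of these 9, MSN alone was at least 1.5-fold higher and 0 were lower, beside 3.95% and 1.12% of all kept genes, so the count is near that background. The median difference was -0.07. MSN, which encodes the membrane-to-actin linker moesin, read 9.51 in the compressed and 8.91 in the uncompressed culture, a difference of 0.60 that was short of 1.5-fold after median centring (0.53) and repeated quantile normalization (0.57). EZR, which encodes ezrin, the S100P partner of the same family, read 11.03 in the compressed and 11.17 in the uncompressed culture. AGER, the gene of the S100 receptor RAGE, has 7 named probe sets. The one with the highest mean read 5.36 in the compressed and 5.13 in the uncompressed culture. AHNAK, whose giant scaffold protein binds the S100A10 and annexin A2 complex, read 7.185 in the compressed and 6.995 in the uncompressed culture.

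BSG, which encodes basigin, a receptor reported for S100A9, read 9.44 in the compressed and 9.78 in the uncompressed culture. CACYBP, the S100A6 partner, read 6.20 in the compressed and 6.32 in the uncompressed culture. With MSN as the exception, the kept partners and receptors differed by less than 1.5-fold. FPR1, FPR2 and FPR3, the formyl peptide receptor genes, were below the floor on both arrays. Of the plasminogen activation list, 2 of 11 genes had a named probe set, PLG and CPB2, both below the floor, so the genes of tPA, urokinase and its receptor were not analysed here.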

How the data were processed

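RNA of 1 compressed and 1 uncompressed AsPC-1 culture was measured on 1 array each, per the labels. The deposited values are log2 signals per probe set. The submitters' processing notes name RMA and the Transcriptome Analysis Console. RMA equalises the distributions of the arrays, so a change shared by all genes is removed, and it compresses changes near background. Which versions and genome build were used is not given in the sources used here. With 1 array per culture, the number of arrays limits the precision.

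Gene names came from the platform annotation (16098 probe sets, 1 gene each), updated through gene identifiers with RefSeq (GRCh38.p14). For a gene with several probe sets the one with the highest mean was used. All 33 named S100 and annexin genes had 1, while AGER had 7 and KRT18 and CALML3 had 2 each. Genes with a mean at or above the median gene level (4.79) were kept. Compressed minus uncompressed signal was taken for each gene and counted at 1.5-fold (0.58 on the log2 scale). No test was possible. A fold is given only where both arrays lay at or above the floor.

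The 10 genes and all lists were chosen with earlier results of these data known. Named are the 10 genes, all other named S100 and annexin genes, up to 3 kept genes in each direction of each other list, and markers. The ANXA2 pseudogenes and the genes beside the S100 cluster were added after their values were seen. Tried as alternatives were keeping all genes, a floor at the 75th percentile, averaging a gene's probe sets, loess correction against level (span 0.3), centring each array on its median over the kept genes (median centring), repeated quantile normalization over named probe sets, and sizes of 0.32 and 1.00 on the log2 scale. An alternative value was taken as moved where it crossed 1.5-fold or shifted by over 0.248, the robust SD across kept genes. Python 3.11.15, NumPy 2.4.6, pandas 2.3.3, statsmodels 0.14.6 and matplotlib 3.10.9 were used.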

Additional observations from a re-analysis of the deposited data

How the results depend on the processing

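A filter or the averaging of probe sets cannot move the difference of a gene with 1 probe set, which fixed 30 of the 86 recomputed values. Of the other 56 values, 49 kept their side of 1.5-fold and moved by less than the robust SD across genes, or, for counts, by at most 1.5 times, and 7 did not. Many of the 49 could hardly have moved. Median centring adds the same -0.07 to every difference, so only crossing 1.5-fold could mark a single gene as moved. A count that fell from 3 to 2 was also taken as kept. At a size of 2-fold the number of higher genes among the 10 was 0, against 0.954% of all kept genes. At a size of 0.32 on the log2 scale it was 3, against 13.5%. The median difference of the chosen annexin genes above the floor (ANXA1, ANXA2 and ANXA3) was 0.39 with no level filter, where ANXA10 joined, 0.49 with a filter at the 75th percentile, where ANXA2 left, 0.57 with median centring and 0.58, just under 1.5-fold, with repeated quantile normalization. The last 2 are the values of ANXA2 itself. With each of these 2 scalings, 2 of the 8 kept genes were at least 1.5-fold higher. Of all 7442 kept genes, 214 were so with median centring and 239 with repeated quantile normalization. Under the 3 scalings no kept gene of the 10 changed the sign of its difference, and ANXA10, below the floor, did so once (0.02 after repeated quantile normalization). The median over all kept genes lay between -0.06 and 0.01 under the alternatives. No paired analysis was possible because each group has 1 array and the result comes from no test. Leaving out a replicate was not possible for the same reason.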

Other observations

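Other calcium- and membrane-binding genes were counted against the 3.95% of kept genes that were at least 1.5-fold higher and the 1.12% that were lower, a background at which lists of this size hold few or no such genes. Of 9 kept EF-hand genes outside the S100 family, 0 were 1.5-fold higher or lower, with a median difference of 0.00 that was -0.07 after median centring. CALML3, a calmodulin-like gene, read 5.62 in the compressed and 6.06 in the uncompressed culture, and CALML4 read 6.61 in the compressed and 6.96 in the uncompressed culture. STIM2, the gene of a calcium sensor of the endoplasmic reticulum, read 5.20 in the compressed and 4.95 in the uncompressed culture. Of 10 kept genes with C2 domains, the other common calcium-dependent membrane-binding fold, 0 reached 1.5-fold in either direction. CPNE7 and CPNE5, both copine genes, differed by 0.36 and 0.19. SYTL4, a synaptotagmin-like gene, read 4.79, just below the floor, in the compressed and 5.17 in the uncompressed culture.

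Plasma membrane repair genes, a process in which annexins and S100 proteins take part, were all 12 kept among 12 named, and 1 was at least 1.5-fold higher and 1 at least 1.5-fold lower, beside the same 3.95% and 1.12%. CAVIN1, a caveolar coat gene, read 5.80 in the compressed and 5.17 in the uncompressed culture, a difference of 0.63 that was short of 1.5-fold after median centring (0.56). TRIM72, a membrane repair gene known from muscle, read 4.65 in the compressed culture, below the floor, and 5.33 in the uncompressed culture. It is the 1 gene counted as lower, and it passed the floor by mean level only through the uncompressed array. EHD2, the gene of an ATPase at the neck of caveolae, differed by 0.37. The genes of the ESCRT membrane-scission machinery all differed by less than 1.5-fold. VPS4A (0.19), CHMP2A (0.18), CHMP4B (0.11) and TSG101 (0.10) were on the higher side, VPS4B was nearly level (-0.03) and CHMP1A was on the lower side (-0.42).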
